A study of Homo sapiens with 12 samples.

Results

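The genes described here are 10 enzymes of the NRF2 antioxidant response in human hepatocellular carcinoma (HCC) cells: NQO1, GCLC, GCLM, HMOX1, TXNRD1, SRXN1, AKR1B10, AKR1C1, AKR1C2 and AKR1C3. They were taken by gene name, and all 10 were found among the 22963 gene names of the deposited expression table. The data are 12 RNA-seq libraries, 3 for each of 4 groups, which the labels call biological replicates. PLC/PRF5, a hepatoma cell line, carried either the empty lentiviral vector (vector group) or the EGR1 coding sequence behind the CMV promoter (EGR1 overexpression group). MHCC97H, an HCC line of high metastatic potential, was either parental or labelled EGR1 knockout. EGR1 is a zinc finger transcription factor, and the study asked what its gain and loss do in HCC cells. The knockout was made with a vector carrying Cas9 and a guide and was grown as single clones, and which clone was sequenced is not given in the sources used here. Both lines were grown in DMEM with fetal bovine serum and penicillin/streptomycin. No oxidant or drug treatment of the sequenced cells is described, and whether cells with a vector were kept under antibiotic selection is not stated. Nothing states whether replicates came from separate thawings or cultures, so the p-values measure only the spread between these libraries.

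NRF2, encoded by NFE2L2, is a transcription factor that is normally held and marked for degradation by KEAP1, the substrate adaptor of a CUL3 ubiquitin ligase. Oxidants and electrophiles modify KEAP1, NRF2 then accumulates, pairs with a small MAF protein and binds antioxidant response elements, from which BACH1 can displace it. The pathway supplies glutathione and thioredoxin reducing power and removes quinones, haem and reactive aldehydes, and it is often active in liver cancer. GCLC and GCLM are the catalytic and modifier subunits of glutamate-cysteine ligase, the rate-limiting enzyme of glutathione synthesis. TXNRD1 reduces thioredoxin with NADPH, and SRXN1 repairs overoxidized peroxiredoxins. NQO1 reduces quinones to hydroquinones, and HMOX1 breaks down haem into biliverdin, iron and carbon monoxide. AKR1B10 reduces retinal and lipid aldehydes, AKR1C1 inactivates progesterone, AKR1C2 inactivates dihydrotestosterone, and AKR1C3 makes testosterone and takes part in prostaglandin synthesis.

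The upstream sequences of the genes show which of them carry the core of the antioxidant response element near the start of the transcript. RefSeq promoter windows of GRCh38.p14, running from 250 bases before to 50 bases after a start, were matched for 8 of the 10 genes by symbol, in 10 windows. HMOX1 and AKR1B10 had no window in the table. The core, TGACNNNGC, was searched on both strands and was found in 3 of the 10 windows, that of GCLM and both of TXNRD1, against 13.3% of all 35116 windows. An EGR1 site, GCGNGGGCG, was found in 0 of the 10 windows and in 9.43% of all windows. A match is a description of the letters and not a shown binding site, and a missing match says only that these letters are not in the window. The 250 bases before the start are shown for GCLM (chr1:93909431-93909680, minus strand) and for the outer start of TXNRD1 (chr12:104215529-104215778, plus strand), and a shorter stretch for the inner start of TXNRD1 (chr12:104286922-104286946, plus strand). Capitals mark the core, which begins 34, 99 and 102 bases before the start, and which is read on the opposite strand in GCLM and in the inner TXNRD1 window.
GCLM: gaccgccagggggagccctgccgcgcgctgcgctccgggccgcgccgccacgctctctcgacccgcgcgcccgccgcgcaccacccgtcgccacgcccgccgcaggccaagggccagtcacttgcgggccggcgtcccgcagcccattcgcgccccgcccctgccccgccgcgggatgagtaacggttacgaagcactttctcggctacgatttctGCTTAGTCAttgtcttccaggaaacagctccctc
TXNRD1, outer start: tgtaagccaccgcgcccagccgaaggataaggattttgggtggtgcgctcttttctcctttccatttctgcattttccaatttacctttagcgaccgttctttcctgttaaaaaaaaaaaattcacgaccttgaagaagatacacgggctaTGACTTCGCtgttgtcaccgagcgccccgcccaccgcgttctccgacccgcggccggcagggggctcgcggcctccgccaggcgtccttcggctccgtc
TXNRD1, inner start: ggatttctGCTTTGTCAttctgact

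The AKR1C genes lie side by side on chromosome 10 and are close copies, so their upstream sequences are shown to make the likeness visible. In GRCh38, AKR1C1 runs from 4963253 to 4983283 on the plus strand, AKR1C2 from 4987400 to 5018031 on the minus strand, and AKR1C3 from 5035354 to 5107686 on the plus strand. Over 246 aligned bases before their RefSeq starts, AKR1C1 and AKR1C2 were identical at 245 (99.6%), whereas AKR1C1 and the first window of AKR1C3 were identical at 185 of 250 (74.0%). The part of these windows that lies outside annotated exons is printed: AKR1C1 (chr10:4963165-4963252), AKR1C2 (chr10:5004024-5004107, minus strand) and the aligned stretch of AKR1C3 (chr10:5048539-5048622). In AKR1C2 all 84 bases match AKR1C1. Capitals in AKR1C3 mark bases that differ from AKR1C1.
AKR1C1: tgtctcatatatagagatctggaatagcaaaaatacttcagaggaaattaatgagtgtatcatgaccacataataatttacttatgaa
AKR1C2: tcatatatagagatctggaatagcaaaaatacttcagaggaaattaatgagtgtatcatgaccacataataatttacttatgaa
AKR1C3: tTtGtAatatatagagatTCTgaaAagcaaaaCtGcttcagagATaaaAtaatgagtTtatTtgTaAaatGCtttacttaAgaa
The coding sequences are also close. AKR1C1 and AKR1C2 differ at 19 of 969 bases (98.0% identity), AKR1C1 and AKR1C3 at 83 (91.4%), and AKR1B10 shares 57.3% to 57.9% of its aligned bases with the AKR1C genes. Of the 100-base stretches of each coding sequence, 20.7% in AKR1C1, 26.4% in AKR1C2, 9.77% in AKR1C3 and 3.53% in AKR1B10 occur unchanged in another gene, and reads from them could have been split between copies. For SRXN1 that share was 33.3%, all of it with AL121758.1, a protein-coding gene annotated on the same strand across it. NQO1 and GCLC exons overlap antisense transcripts, and the sources used here do not say whether strand was used in quantification. GCLC exons also overlap AL033397.1, a long intergenic noncoding RNA on the same strand.

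The other 7 genes lie on 7 different chromosomes. In GRCh38, NQO1 lies on chromosome 16 from 69706996 to 69726951, GCLC on chromosome 6 from 53497341 to 53616970, and GCLM on chromosome 1 from 93885205 to 93909456. HMOX1 lies on chromosome 22 from 35380361 to 35394214, TXNRD1 on chromosome 12 from 104215779 to 104350305, SRXN1 on chromosome 20 from 646615 to 653370, and AKR1B10 on chromosome 7 from 134527592 to 134541408. The GC content of the annotated transcripts chosen for them, together with those of the AKR1C genes, ran from 37.3% in GCLM to 58.1% in HMOX1.

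EGR1 was read in every library first, as a check of the labels. Its FPKM, a fragment number scaled to transcript length and library size, was 1.97, 1.43 and 2.03 in the vector libraries and 56.3, 50.2 and 52.2 in the EGR1 overexpression libraries. It was 20.2, 23.1 and 21.2 in parental MHCC97H cells and 35.2, 50.3 and 32.9 in the libraries labelled knockout, 0.83 ± 0.15 (SE) higher on the log2 scale (limma adjusted p = 0.00126), or 0.46 higher after the correction for transcript GC content and length that is described with the comparisons. EGR1 mRNA therefore ran against the knockout label, and an FPKM over the whole gene does not tell whether the coding sequence is intact. The study states that its knockout clones were checked by western blot and by sequencing of DNA, which these libraries do not show. Summed over genes, FPKM came to 376335 to 437652 in a library, replicates correlated at r = 0.993 to 0.997 across genes, and the number of reads is unknown, so no counting error is given. Of 15 hepatocyte and hepatoma markers, 14 had a mean of at least 1 FPKM in each PLC/PRF5 group, 9 in parental MHCC97H cells and 10 in the libraries labelled knockout. ALB, which encodes albumin, was near the floor in parental MHCC97H cells, at 0.611 to 1.21 FPKM, and APOA2 was listed at 0 in all 6 MHCC97H libraries. The 6 fibroblast markers summed to at most 1.25 FPKM in any library and the 4 endothelial markers to at most 8.51. The 5 immune markers summed to 27.0 to 39.4 FPKM in the vector, EGR1 and parental libraries and to 52.8 to 58.1 in those labelled knockout, nearly all of it CD68, while PTPRC, the pan-leukocyte marker, did not exceed 0.0587 in any library.

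The 2 lines without a change to EGR1 differed most. All 10 genes were higher in parental MHCC97H than in vector PLC/PRF5 cells, by 0.69 to 9.89 on the scale of log2(FPKM + 1), with a median of 2.54 against −0.02 over the 12046 genes tested. Over all genes, 38.8% were called higher and 40.9% lower in this comparison. The vector and parental libraries did not overlap for any of the 10, as for 81.0% of all genes. The 10 genes together made up 0.144% to 0.146% of the summed FPKM of a vector library and 1.44% to 1.46% of a parental library. The 15 hepatocyte markers summed to 4385 to 4649 FPKM in vector and 1503 to 1883 in parental libraries. In parental cells the largest were the keratin genes KRT8 and KRT18, at means of 1102 and 517, against 1205 and 1134 in vector cells. SERPINA1 had means of 1372 in vector and 0.212 in parental cells, and APOB of 126 and 1.27. Of 14 markers tested, 1 was called higher and 11 lower. Their part in the result was not tested. Cell line, vector and any library batch cannot be told apart here.

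AKR1B10 showed the widest gap. Its mean was 1.24 ± 0.0293 FPKM (SD, n = 3) in vector cells and 2132 ± 59.7 in parental MHCC97H cells, 1713-fold higher, with a log2 change of 9.89 ± 0.07 (SE, limma adjusted p = 1.69e-11). Among all gene names it ranked 13th or 14th by FPKM in each parental library and between 10914 and 11161 in the vector libraries. AKR1C1 rose from 9.45 ± 0.657 to 423 ± 9.79 FPKM, a 44.7-fold difference. The gap was smaller for AKR1C2, from 54.5 ± 0.807 to 277 ± 15.1 FPKM (5.09-fold), and for AKR1C3, from 147 ± 5.62 to 869.8 ± 5.16 FPKM (5.92-fold).

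The glutathione and thioredoxin enzymes followed. GCLM was 12.1 ± 2.13 FPKM in vector cells and 144 ± 25.9 in parental MHCC97H cells (11.9-fold), whereas its partner GCLC was 27.9 ± 2.24 and 59.5 ± 3.82 (2.13-fold). The GCLM to GCLC ratio of FPKM was thus 0.433 ± 0.0430 in vector cells and 2.41 ± 0.284 in parental MHCC97H cells. TXNRD1 went from 105 ± 2.12 to 790.2 ± 32.8 FPKM (7.54-fold) and SRXN1 from 25.2 ± 0.160 to 150.0 ± 5.16 FPKM (5.96-fold). NQO1 was 143 ± 2.16 and 552 ± 7.42 FPKM (3.87-fold). HMOX1 differed least, from 68.2 ± 3.31 to 111 ± 17.1 FPKM (1.63-fold, log2 change 0.69 ± 0.11, limma adjusted p = 0.000520), and its adjusted p was the highest of the 10. After a correction for the GC content and length of transcripts the HMOX1 difference was 1.21. All 10 genes remained called under each of the 15 alternative settings, that correction and the omission of each library included.

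**Figure D1:**
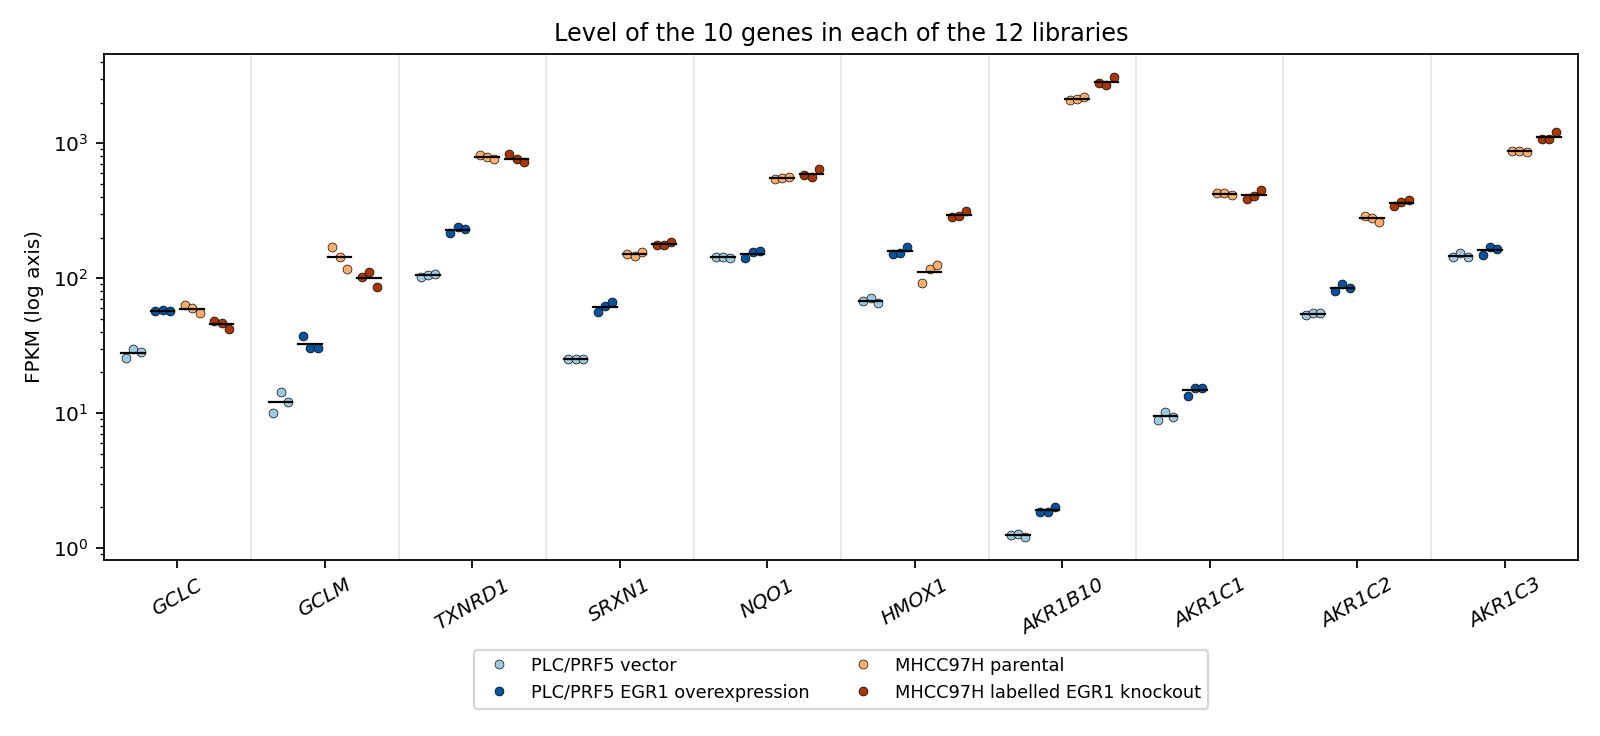
FPKM on a log axis (y) of each of the 10 genes (x), in the 3 libraries of each group (points) with the group mean (bar). Every MHCC97H library lies above every vector PLC/PRF5 library for each gene, with the widest gap in AKR1B10 (means of 1.24 and 2132 FPKM) and the narrowest in HMOX1 (68.2 and 111 FPKM).

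EGR1 overexpression in PLC/PRF5 cells came with higher levels of 8 of the 10 genes, and none was lower. Of all 11671 genes tested, 19.2% were called higher and 10.4% lower. The median change of the 10 genes was 0.82 on the log2 scale, against 0.09 over all genes. Vector and EGR1 libraries did not overlap for 8 of the 10 genes, compared with 47.7% of all genes. GCLC, GCLM, TXNRD1, SRXN1 and HMOX1 rose by 1.01 to 1.37, AKR1B10, AKR1C1 and AKR1C2 by 0.37 to 0.63, and NQO1 and AKR1C3 were not called. As ratios of mean FPKM, the first 5 rose 2.05-fold to 2.70-fold and the next 3 1.53-fold to 1.56-fold. Of 14 hepatocyte markers tested in this comparison, 4 were called higher, 1 lower and 9 were not called. All 15 summed to 4385 to 4649 FPKM in vector and 5184 to 6506 in EGR1 libraries. Means in vector and EGR1 libraries were 3.18 and 113 for APOA1 and 1372 and 2580 for SERPINA1. TF, the marker called lower, had means of 112 and 81.6. Their part in the changes was not tested.

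GCLM, the modifier subunit, was 9.97, 14.2 and 12.2 FPKM in the vector libraries and 37.1, 30.5 and 30.6 in the EGR1 libraries. It rose by 1.37 ± 0.13 (SE; limma adjusted p = 0.000308), the largest change of the 10. GCLC, the catalytic subunit, was 25.4, 29.8 and 28.5 FPKM with vector and 56.8, 57.6 and 56.7 with EGR1. Its EGR1 libraries lay close together and all above the vector libraries, with a rise of 1.01 ± 0.09 (limma adjusted p = 0.000165). The ratio of GCLM to GCLC was 0.574 ± 0.0684 with EGR1, between the vector and the MHCC97H values.

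SRXN1, the peroxiredoxin repair enzyme, was 25.0, 25.2 and 25.3 FPKM in vector libraries and 55.7, 62.6 and 66.3 in EGR1 libraries, a rise of 1.25 ± 0.09 (limma adjusted p = 6.22e-05). TXNRD1 was 103, 105 and 107 FPKM with vector and 216, 240.2 and 232 with EGR1, a rise of 1.12 ± 0.08 (limma adjusted p = 8.58e-05). HMOX1 was 67.9, 71.7 and 65.1 FPKM with vector and 152, 153 and 169.7 with EGR1, a rise of 1.20 ± 0.09 (limma adjusted p = 6.98e-05). For each of these 3 genes the lowest EGR1 library was more than 2-fold above the highest vector library. NQO1, by contrast, was 143, 144 and 140.3 FPKM with vector and 142, 155 and 158 with EGR1. Its groups overlapped, and the change was 0.09 with a 95% confidence interval of −0.10 to 0.28 (limma adjusted p = 0.455).

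Among the aldo-keto reductases, AKR1C2 was 53.5, 55.0 and 54.8 FPKM in vector libraries and 79.9, 90.5 and 84.8 in EGR1 libraries, a rise of 0.63 ± 0.08 (limma adjusted p = 0.00127). AKR1C1, at a lower level, was 8.84, 10.1 and 9.37 FPKM with vector and 13.4, 15.5 and 15.4 with EGR1, a rise of 0.59 ± 0.10 (limma adjusted p = 0.00337). AKR1C3 was 144, 153 and 144 FPKM with vector and 148, 170.5 and 165 with EGR1. Its groups overlapped, and the interval of its change ran from −0.08 to 0.34 (limma adjusted p = 0.300), although quantile normalization called it higher by 0.21 (limma adjusted p = 0.0477). AKR1B10 was 1.25, 1.27 and 1.21 FPKM with vector and 1.85, 1.84 and 2.00 with EGR1, a rise of 0.37 ± 0.09 (1.53-fold by mean FPKM, limma adjusted p = 0.0192) at a level just above the filter of 1 FPKM. That call was lost without vector library 3 (limma adjusted p = 0.0607), EGR1 library 2 (limma adjusted p = 0.0629) or EGR1 library 3 (limma adjusted p = 0.0774), and with quantile normalization (limma adjusted p = 0.116), with a change of 0.22 to 0.38 in these fits.

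The GC content of transcripts moved with the changes of all genes in this comparison, and splines fitted to GC content and transcript length accounted for 18.2% of their variance over 10829 genes. After this trend was removed, 16.7% of all genes were called higher and 18.1% lower, and the same 8 of the 10 genes were called higher. The 5 largest changes were then 0.89 (GCLC) to 1.27 (SRXN1), and those of AKR1C1 and AKR1C2 were 0.35 and 0.38. Of called genes, 64.8% were higher with the values as deposited, 48.0% after the correction and 46.0% after quantile normalization.

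In the MHCC97H libraries labelled knockout, where EGR1 mRNA was higher than in parental cells, the genes did not move together. HMOX1, AKR1B10, AKR1C2, AKR1C3 and SRXN1 were called higher, GCLC and GCLM lower, and NQO1, TXNRD1 and AKR1C1 were not called. As ratios of mean FPKM, HMOX1 rose 2.65-fold and the other 4 1.19-fold to 1.34-fold, and GCLC and GCLM were at 0.766 and 0.695 of the parental mean. This comparison called 34.8% of all 11577 genes higher and 31.5% lower, so the count of members called lies close to the share of all genes called. The median of the 10 changes was 0.18, against 0.02 over all genes. Parental and labelled knockout libraries did not overlap for 8 of the 10 genes, compared with 71.8% of all genes. Hepatocyte markers moved with this comparison, their sum being 1503 to 1883 FPKM in parental and 2316 to 2749 in labelled knockout libraries, as did CD68, at 26.3 to 29.7 and 51.6 to 56.2 FPKM, and their part in the changes was not tested.

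HMOX1 stood highest among the changes. It was 92.4, 116 and 126 FPKM in parental libraries and 284, 287 and 316 in those labelled knockout, a rise of 1.41 ± 0.12 (limma adjusted p = 3.73e-05). GCLC was 62.9, 60.1 and 55.4 FPKM in parental cells and 48.0, 46.4 and 42.3 in the libraries labelled knockout, and its log2 value fell by 0.38 (SE 0.09, limma adjusted p = 0.00504). GCLM was 169, 144 and 118 FPKM in parental cells and 103, 111 and 85.7 in the libraries labelled knockout, and fell by 0.51 (SE 0.14, limma adjusted p = 0.0113). The parental GCLM libraries were spread widely, and the lowest of them was only slightly above the highest labelled knockout library.

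SRXN1 was 149.8, 145 and 155 FPKM in parental libraries and 177, 175 and 185 in those labelled knockout, a change of 0.25 ± 0.08 (limma adjusted p = 0.0184). That call was lost without parental library 2 (limma adjusted p = 0.105) or labelled knockout library 3 (limma adjusted p = 0.0513), and when libraries were scaled to the same total (limma adjusted p = 0.236) or quantile normalized (limma adjusted p = 0.944). TXNRD1 was 825, 785 and 760.1 FPKM in parental cells and 829, 759.8 and 723 in the libraries labelled knockout, with overlapping groups and an interval of the change from −0.25 to 0.18 (limma adjusted p = 0.739), but it was called lower after quantile normalization, at −0.30 (limma adjusted p = 0.0199). NQO1 was 545, 549.7 and 559.8 FPKM in parental cells and 582, 564 and 639.6 in the libraries labelled knockout. Its groups did not overlap, but the change of 0.11 did not pass the test (limma adjusted p = 0.315).

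AKR1B10 was 2075, 2127 and 2194 FPKM in parental libraries and 2803, 2693 and 3091 in those labelled knockout, a change of 0.42 ± 0.11 (limma adjusted p = 0.00688), which was not called when every gene above 0 entered the fit (limma adjusted p = 0.0694). It ranked 9th of all gene names in each library labelled knockout. AKR1C3 was 870.0, 875 and 864 FPKM in parental cells and 1078, 1072 and 1211 in the libraries labelled knockout, a change of 0.36 ± 0.09 (limma adjusted p = 0.00813). AKR1C2 was 290.2, 281 and 261 FPKM in parental cells and 344, 365 and 381 in the libraries labelled knockout, a change of 0.39 ± 0.09 (limma adjusted p = 0.00402). With quantile normalization the changes of AKR1C3 and AKR1C2 were 0.07 and 0.15 and were not called (limma adjusted p = 0.409 and 0.0969). AKR1C1 was 429, 428 and 411 FPKM in parental cells and 386, 406 and 446 in the libraries labelled knockout. Its groups overlapped, and the interval of its change was −0.24 to 0.17 (limma adjusted p = 0.732). It was called lower when libraries were scaled to the same total, at −0.19 (limma adjusted p = 0.0497), or quantile normalized, at −0.27 (limma adjusted p = 0.0111).

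GC content moved with this comparison far more than with the other. The same splines accounted for 54.6% of the variance over 10806 genes, and genes rich in GC were higher in the libraries labelled knockout (Spearman's rho = 0.77 across genes, which are not independent replicates). After the trend was removed, 24.4% of all genes were called higher and 22.3% lower, and 8 of the 10 genes were called higher and 0 lower. GCLM, whose transcript has the lowest GC content of the 10, turned from lower to higher by 0.19 (limma adjusted p = 0.0244). GCLC, at −0.11, and SRXN1, at −0.04, were no longer called (limma adjusted p = 0.0946 and 0.481). TXNRD1 and AKR1C1, with values just below 0 as deposited, were called higher by 0.28 and 0.42 (limma adjusted p = 0.00420 and 0.0170), and NQO1 by 0.25 (limma adjusted p = 0.0230). For TXNRD1 and AKR1C1 this is the opposite of the direction called after quantile normalization. HMOX1, the richest in GC, was still higher, by 0.84, AKR1C2 by 0.90, AKR1C3 by 0.70 and AKR1B10 by 0.36. Whether the trend with GC content is technical was not tested, and a biological change that ran with GC content would be removed too.

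**Figure D2:**
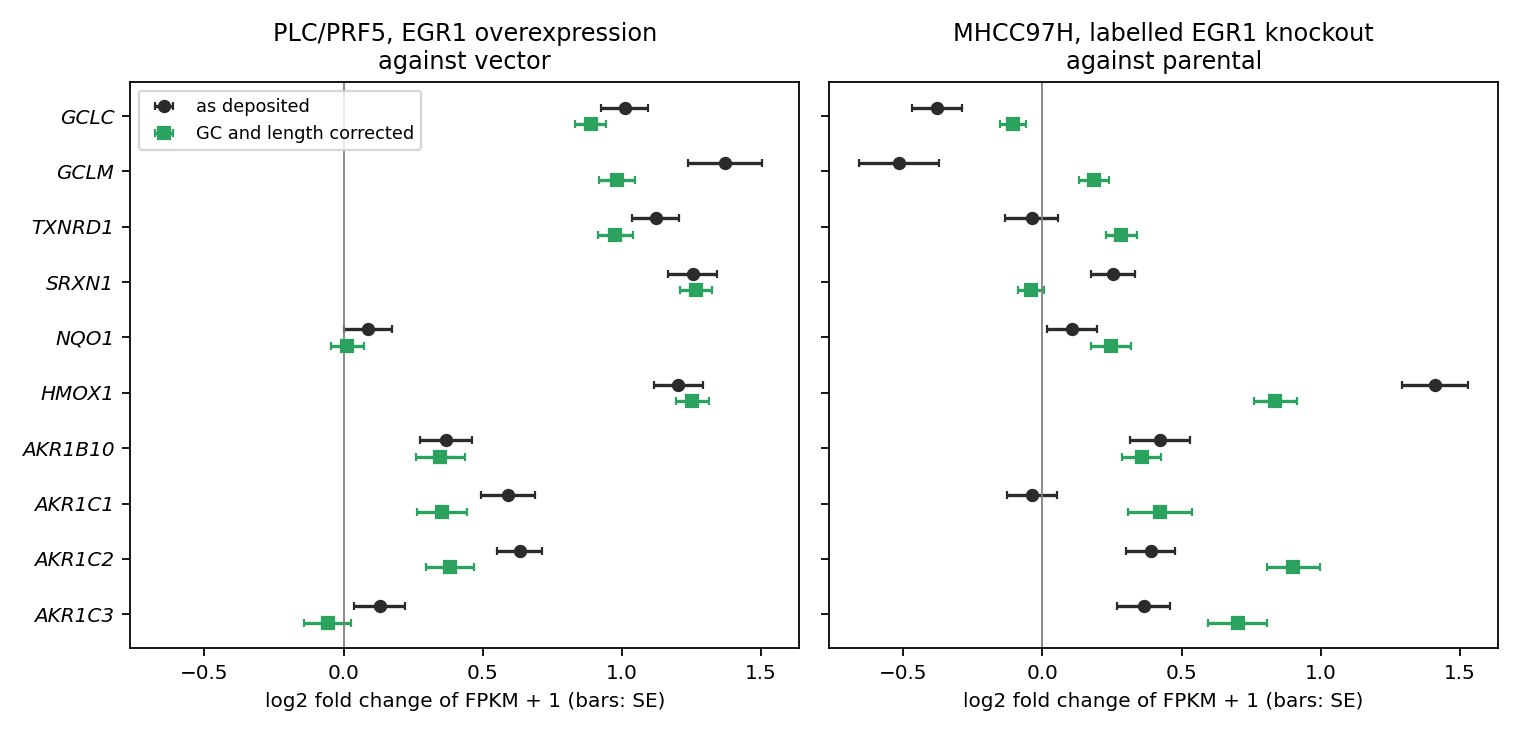
Log2 fold change of FPKM + 1 with its SE (x) for each of the 10 genes (y) in each cell line, from the values as deposited (circles) and after correction for GC content and length (squares). In PLC/PRF5 cells 8 genes were called higher either way, whereas in MHCC97H cells GCLM moved from −0.51 to 0.19 and AKR1C1 from −0.04 to 0.42.

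The difference between the changes in the 2 lines was tested in a fit of all 12 libraries, as the change with EGR1 overexpression minus the change in the libraries labelled knockout. It was called for 5 of the 10 genes, compared with 63.8% of all 12090 genes. All 5 were more positive in PLC/PRF5 cells: GCLM by 1.88 ± 0.22, GCLC by 1.39 ± 0.11, TXNRD1 by 1.16 ± 0.11, SRXN1 by 1.00 ± 0.11 and AKR1C1 by 0.63 ± 0.12 (limma adjusted p = 2.04e-05, 2.40e-06, 6.87e-06, 1.16e-05 and 0.000606). With the GC correction the first 4 were still called, at 0.83, 1.01, 0.71 and 1.29, but AKR1C1 was not, at −0.05. HMOX1 rose in each line, and its difference was −0.21, with an interval of −0.53 to 0.12 (limma adjusted p = 0.241), but 0.39 after the GC correction (limma adjusted p = 0.00640). The intervals of the other genes ran from −0.25 to 0.22 for NQO1, from −0.27 to 0.16 for AKR1B10, from 0.01 to 0.48 for AKR1C2 and from −0.49 to 0.02 for AKR1C3, and after the GC correction AKR1C2, at −0.50, and AKR1C3, at −0.75, were called lower. The AKR1C2 difference was called in the opposite direction when libraries were scaled to the same total, at 0.37 (limma adjusted p = 0.00400), or quantile normalized, at 0.47 (limma adjusted p = 0.00133), and without EGR1 library 1 or parental library 3, at 0.29 in each fit (limma adjusted p = 0.0282 and 0.0389). Quantile normalization also called the differences of AKR1B10, at −0.24 (limma adjusted p = 0.0303), and NQO1, at 0.34 (limma adjusted p = 0.00961). The comparison of parental with vector cells shares its libraries with the 2 EGR1 comparisons, and the difference uses the libraries of both.

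Over the 4 groups, vector PLC/PRF5 cells held the lowest mean of each of the 10 genes. NQO1, SRXN1, AKR1B10, AKR1C2 and AKR1C3 then rose from EGR1 overexpression through parental to labelled knockout libraries, with overlap only between vector and EGR1 libraries for NQO1 and AKR1C3. For GCLM, TXNRD1 and AKR1C1 the parental group was highest, and parental and labelled knockout libraries overlapped for TXNRD1 and AKR1C1. For HMOX1 the EGR1 overexpression group lay above the parental group. For GCLC it lay above the labelled knockout group and overlapped the parental group.

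NRF2 itself and KEAP1 were read next. NFE2L2 was 35.5, 51.4 and 43.1 FPKM in vector libraries and 93.4, 86.0 and 83.2 in EGR1 libraries, a rise of 1.01 ± 0.13 (limma adjusted p = 0.00120). It was 63.7, 54.3 and 43.8 FPKM in parental MHCC97H libraries and 25.6, 29.1 and 20.6 in those labelled knockout, and fell by 1.07 (SE 0.16, limma adjusted p = 0.000426). Its groups did not overlap in either line, and the GC correction left changes of 0.93 and −0.91. Between the untreated lines, NFE2L2 mRNA differed by 0.31 (limma adjusted p = 0.112) and was not called.

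KEAP1, the repressor, differed more between the lines than with EGR1. It was 41.2, 36.1 and 37.2 FPKM in vector PLC/PRF5 cells and 4.79, 5.01 and 5.00 in parental MHCC97H cells, where its log2 value was lower by a change of −2.72 ± 0.09 (limma adjusted p = 1.56e-08). It was 42.4, 50.5 and 57.2 FPKM with EGR1 overexpression, a rise of 0.37 ± 0.12 (limma adjusted p = 0.0400). The labelled knockout libraries held 5.84, 6.15 and 5.87 FPKM, a change of 0.23 that was not called (limma adjusted p = 0.0566), whereas after the GC correction KEAP1 was called lower, at −0.32 (limma adjusted p = 0.0119).

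BACH1, the competitor of NRF2, had means of 6.69 and 9.55 FPKM in vector and EGR1 libraries, a rise of 0.46 (limma adjusted p = 0.0351) that was 0.11 and not called after the GC correction. Its means were 14.1 and 7.06 FPKM in parental and labelled knockout libraries, where it fell by 0.92 (limma adjusted p = 0.00139), or by 0.27 after the correction (limma adjusted p = 0.0372). The small MAF partners MAFF, MAFG and MAFK all rose with EGR1, by 0.63, 0.56 and 0.32. In the libraries labelled knockout MAFF and MAFK were higher by 0.54 and 0.83 and MAFG was not called, and after the GC correction MAFF stood at 0.00 and was not called, MAFK at 0.22, and MAFG was called lower at −0.25. MAFG was 8.84 FPKM in vector and 47.0 in parental MHCC97H cells, whereas MAFK was 55.7 and 7.42. SQSTM1, the autophagy receptor p62 that binds KEAP1, rose from 542 to 734 FPKM with EGR1 and was 952 FPKM in parental and 1606 in labelled knockout libraries, changes of 0.43 and 0.75, the second of them 0.28 after the correction. Of the 10 regulators in the list, 7 were called higher and 0 lower with EGR1, against 19.2% and 10.4% of all genes. In the libraries labelled knockout 4 were higher and 3 lower (4 and 5 after the GC correction), against 34.8% and 31.5% of all genes. Parental MHCC97H against vector PLC/PRF5 cells had 3 higher and 5 lower, against 38.8% and 40.9% of all genes.

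**Figure D3:**
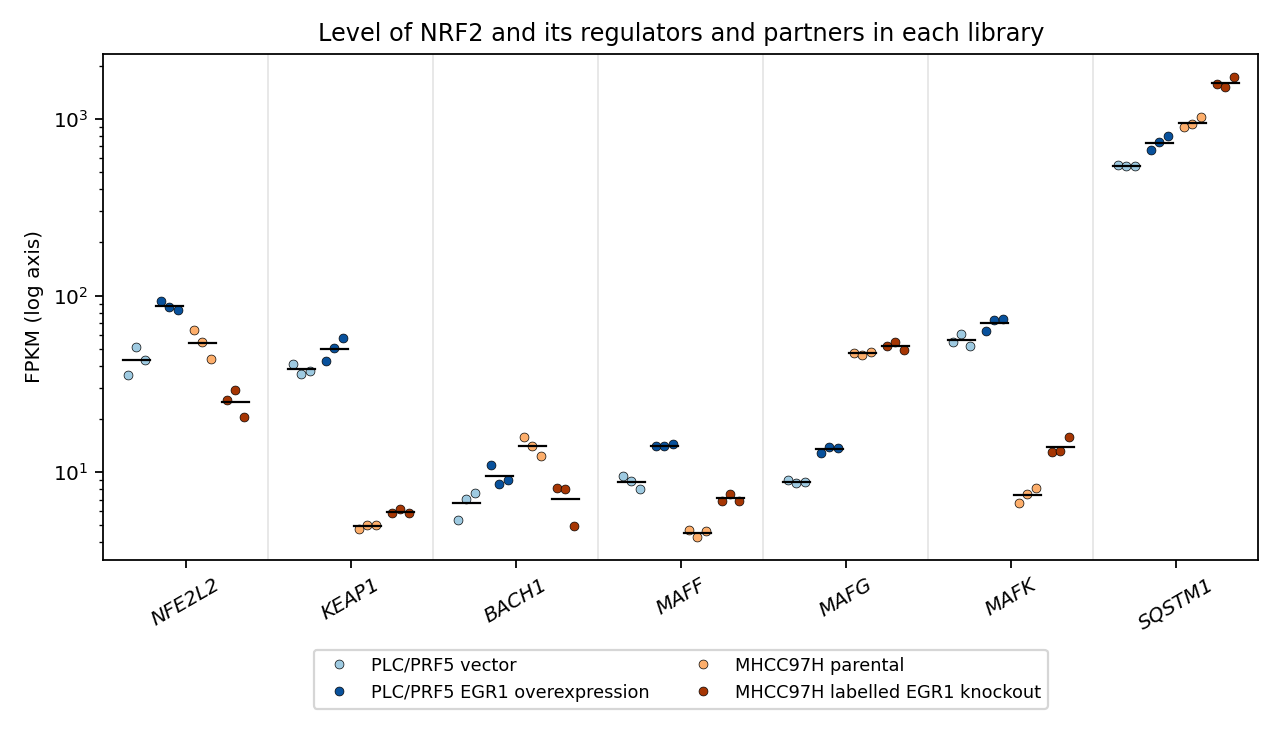
FPKM on a log axis (y) of NFE2L2, KEAP1, BACH1, the small MAF genes and SQSTM1 (x) in the 3 libraries of each group (points) with the group mean (bar). NFE2L2 was highest with EGR1 overexpression (mean 87.5 FPKM) and lowest in the libraries labelled knockout (25.1 FPKM), and KEAP1 was lower in every MHCC97H library than in every PLC/PRF5 library.

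AKR1C1 and AKR1C2, whose upstream stretches are nearly the same, were not held at one ratio. AKR1C1 divided by AKR1C2 was 0.165, 0.184 and 0.171 in vector libraries and 0.167, 0.171 and 0.182 in EGR1 libraries, which overlap. It was 1.48, 1.52 and 1.58 in parental MHCC97H libraries and 1.12, 1.11 and 1.17 in those labelled knockout. The sum of the 2 genes, to which a shared read adds whichever copy it was given to, was 63.9 ± 1.42 FPKM with vector and 99.8 ± 6.35 with EGR1. In MHCC97H cells the sum was 700.1 ± 24.7 FPKM in parental and 776 ± 49.2 in the labelled knockout libraries, and all 3 of the latter were above the parental libraries. The annotated transcripts used for GC content and length differ in length between the genes, 6705 bases for AKR1C1 and 3756 for AKR1C2, and the GC correction moved the labelled knockout changes of both upward.

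**Figure D4:**
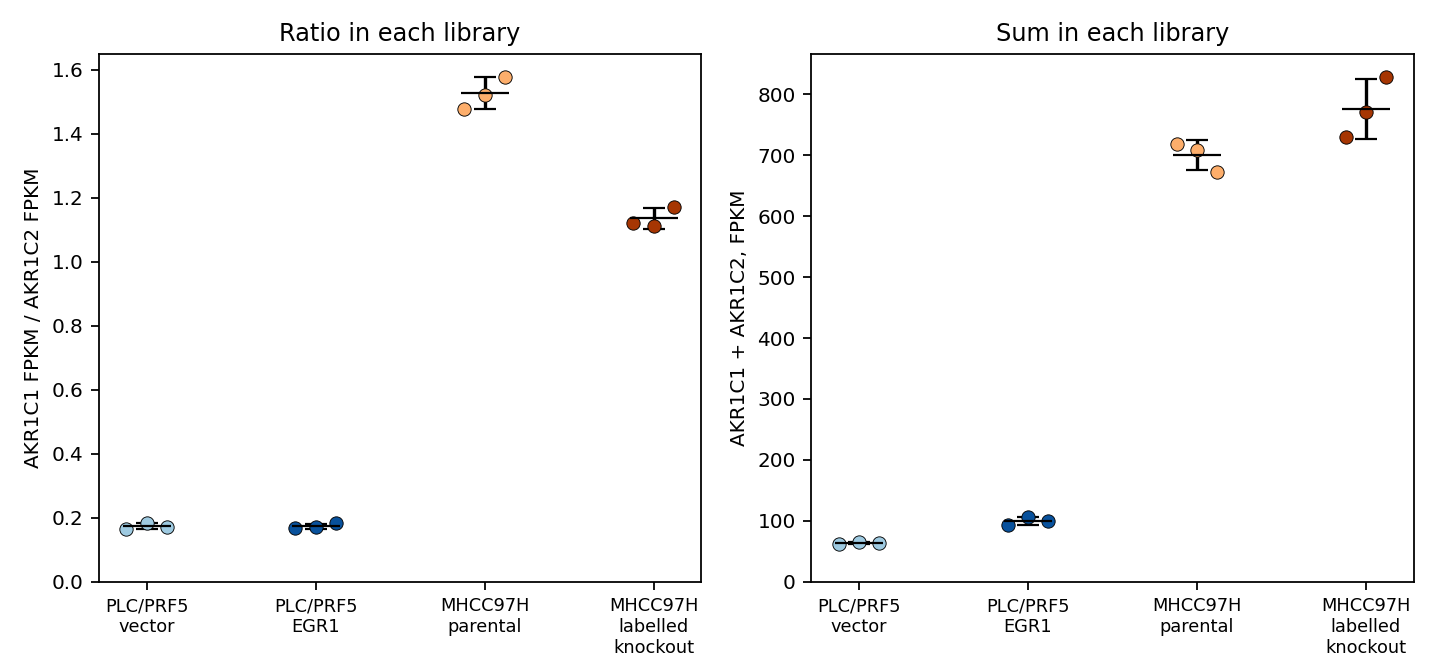
Ratio of AKR1C1 to AKR1C2 FPKM (left, y) and their sum in FPKM (right, y) in the 3 libraries of each group (points), with the mean (bar) and SD. The ratio was near 0.173 in both PLC/PRF5 groups, 1.53 in parental MHCC97H cells and 1.14 in the libraries labelled knockout.

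The rest of the pathway was read from lists of related genes. Over all genes, 19.2% were called higher and 10.4% lower with EGR1 (16.7% and 18.1% after the GC correction). In the libraries labelled knockout the shares were 34.8% and 31.5% (24.4% and 22.3% after the correction). For parental against vector cells they were 38.8% and 40.9%. A count near these shares is not particular to its list. Among 22 other enzymes and transporters linked to NRF2, 18 were higher and 4 lower in parental MHCC97H than in vector PLC/PRF5 cells. With EGR1 overexpression 4 of 16 tested were higher and 0 lower (8 higher and 1 lower after the GC correction), and in the libraries labelled knockout 11 of 22 were higher and 5 lower. OSGIN1, an oxidative stress growth inhibitor, was higher in each EGR1 comparison, at 7.25 and 24.4 FPKM in vector and EGR1 libraries (change 1.62) and 19.2 and 47.2 FPKM in parental and labelled knockout libraries (change 1.26, or 0.59 after the GC correction). ALDH3A1, an aldehyde dehydrogenase, was also higher in each, by 0.64 and 0.73, though by only 0.08 and not called in MHCC97H cells after the GC correction. Its means were near the filter of 1 FPKM in PLC/PRF5 cells, at 0.884 with vector and 1.95 with EGR1. In parental and labelled knockout libraries they were 402 and 667 FPKM. ABCC2, an efflux pump for conjugates, and UGDH, which makes UDP-glucuronic acid, rose by 0.71 and 0.90 with EGR1. In the libraries labelled knockout ABCC2 fell by 1.12 and UGDH by 0.46, and after the GC correction UGDH stood at 0.01.

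Other glutathione genes split. With EGR1 3 of 21 tested were higher and 7 lower, and in the libraries labelled knockout 12 of 20 were higher and 4 lower, or 6 higher and 3 lower after the GC correction. SLC7A11, the cystine transporter subunit, rose by 1.02 with EGR1, from 1.76 to 4.57 FPKM (0.46 after the correction), and fell by 0.98 in the libraries labelled knockout, from 55.4 to 27.4 FPKM, although the second change was −0.11 and not called after the GC correction. Its partner SLC3A2 was higher in each, by 0.80 and 0.54, and in MHCC97H cells by 0.00 after the correction. GSTP1, a glutathione transferase, fell by 0.92 with EGR1 and rose by 0.74 in the libraries labelled knockout, where the corrected value was 0.01. CHAC1, which degrades glutathione, fell by 0.45 and by 0.73, the latter −1.43 after the correction.

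Of 10 thioredoxin and peroxiredoxin genes, 1 was higher and 1 lower with EGR1, and 4 of 9 tested were higher and 2 lower in the libraries labelled knockout, or 2 higher and 3 lower after the GC correction, which moved their median from 0.20 to −0.08. Thioredoxin itself, TXN, the substrate of TXNRD1, rose by 0.71 with EGR1 and fell by 0.65 in the libraries labelled knockout, and the GC correction left 0.55 and −0.40. PRDX2, a peroxiredoxin, fell by 0.35 with EGR1 and rose by 0.68 in MHCC97H cells, where the corrected value was 0.07. Of 7 haem and iron genes, 1 was higher with EGR1 (4 after the GC correction) and 4 were higher and 1 lower in the libraries labelled knockout (2 and 0 after it). FTH1, the ferritin heavy chain that stores iron, was higher in each, by 0.69 and 0.40, but the second was 0.16 and not called after the correction. Of the 3 superoxide and peroxide enzymes, SOD1, SOD2 and CAT, 0 were called by limma with EGR1, none reaching an unadjusted p of 0.05, and 2 were higher and 1 lower in the libraries labelled knockout. Of the other aldo-keto reductases, 0 of 3 tested were called by limma with EGR1, again none at an unadjusted p of 0.05, and 4 of 7 were higher in the libraries labelled knockout, or 1 higher and 2 lower after the GC correction. Between the lines, 4 of 6 of these were higher and 2 lower in parental MHCC97H cells.

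**Figure D5:**
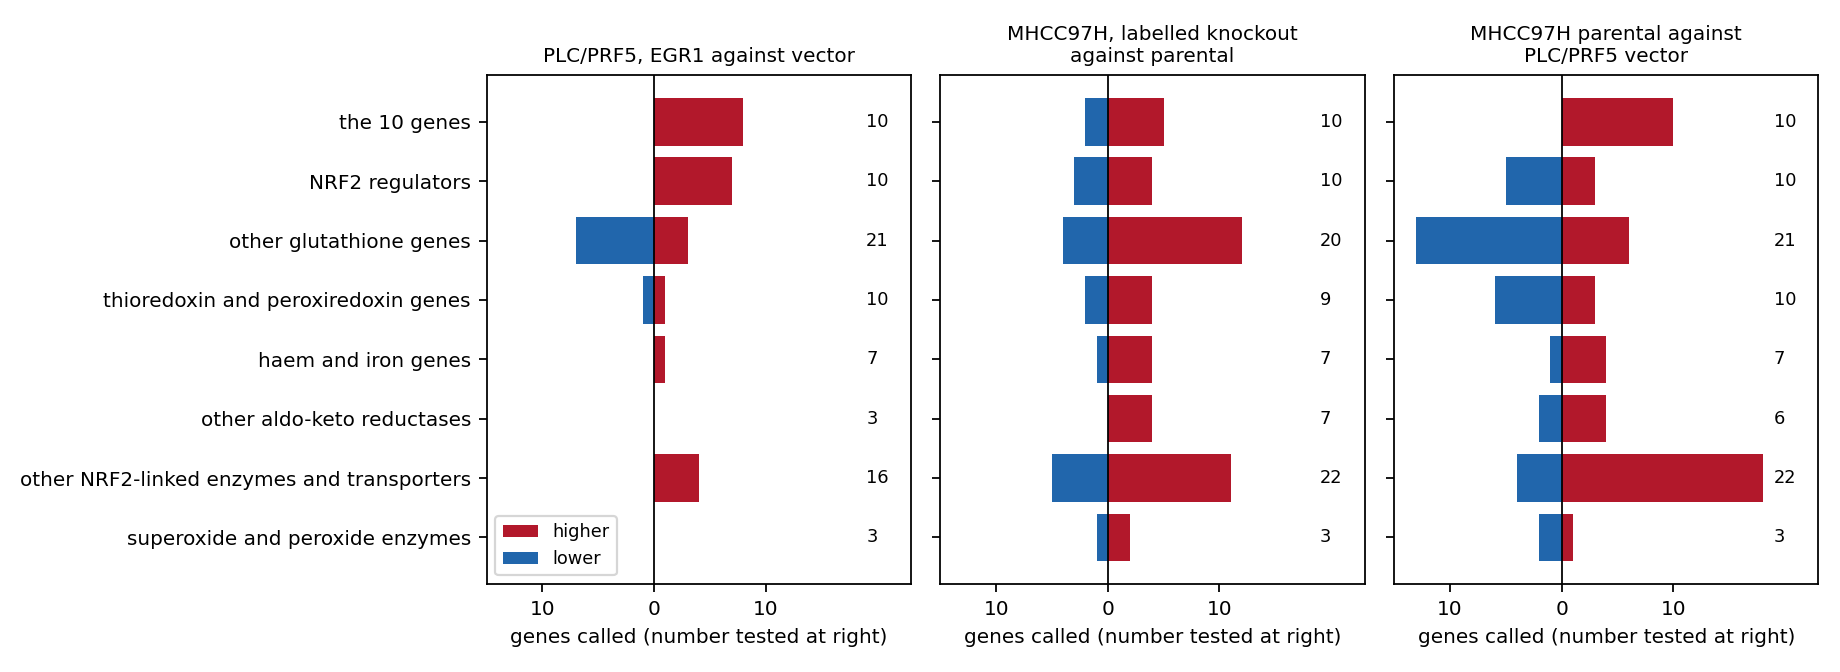
Number of genes called higher (right of 0) and lower (left of 0) on the x axis for the 10 genes and each related list (y), in the 3 comparisons, with the number tested at the right. All 10 genes and 18 of 22 other NRF2-linked genes were higher in parental MHCC97H cells, with or without the GC correction. Of 21 other glutathione genes, 6 were higher and 13 lower there, or 9 and 11 after the correction. Of all genes, 38.8% were higher and 40.9% lower in that comparison, or 4419 and 4725 of 11214 after the correction.

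The genes most like AKR1B10, AKR1C1 and GCLM, the 3 members whose group means ranged widest, were found by the root mean square difference of centred log2(FPKM + 1) over the 12 libraries among 12090 genes. For AKR1B10 they were S100A6 (0.13), S100A11 (0.20) and LDHB (0.51), whose means were at most 0.356 FPKM in the PLC/PRF5 groups and at least 609.9 FPKM in the MHCC97H groups. For AKR1C1 they were TIMP3 (0.20), CAV1 (0.22) and OLFM1 (0.24). For GCLM they were TRIM31 (0.26), TXNRD1 (0.27) and SPTSSB (0.29). TXNRD1 is thus the only one of the 10 genes among these neighbours.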

How the data were processed

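Messenger RNA selected with oligo(dT) was made into libraries treated with duplex-specific nuclease and sequenced on an Illumina NovaSeq. The authors deposited 1 table of FPKM values, per gene and library, without read counts. The submitters' processing notes name StringTie and hg38, and the aligner, versions and strand setting are not given in the sources used here. The table carries no depth and therefore no counting error, and nuclease treatment lowers abundant cDNA. Of the gene names, 3031 are unnamed assembled loci, and 19458 of 19932 others (97.6%) matched GENCODE 29 (GRCh38), from which positions, GC content and transcript length were taken. For each gene a transcript annotated as principal was preferred, then a coding one, and the longest where several qualified. Groups came from sample titles.

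Values were transformed as log2(FPKM + 1), and genes with a mean of at least 1 FPKM over the libraries compared were tested with limma 3.58.1 (moderated test with an intensity trend, 2-sided) in R 4.3.3, with Benjamini-Hochberg adjustment over all genes tested and a threshold of 0.05. Fold changes on this scale understate those of low genes, so ratios of mean FPKM are also given. Each pair of groups was fitted alone, and the difference between the changes over all 12 libraries. The code was tested on simulated data. An exact permutation test of 3 against 3 libraries cannot go below p = 0.1 (2-sided), which each gene with separate groups gave. The GC correction removed splines (5 degrees of freedom each) on GC content and log length from each library's deviation from its cell line mean. For parental against vector cells the deviation was taken from the mean over both lines.

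The 10 genes, the lists and the GC correction were chosen with earlier results of these data known. Named beside the 10 are EGR1, the NRF2 regulators, and up to 4 genes of each list called in both EGR1 comparisons, ranked by summed change. Likeness was computed for the 3 of the 10 genes with the widest range of group means. Other pseudocounts, filters, scalings, a fit without the trend, a replicate block and leave-one-out fits were tried. Sequences came from RefSeq tables of GRCh38.p14 and were read with Python 3.11.15. Protein sequences were not used here.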

Additional observations from a re-analysis of the deposited data

How the results depend on the processing

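Depth is unknown, so low genes such as AKR1B10 in PLC/PRF5 cells are limited by an error that cannot be given. The number of the 10 genes called stayed within 1.5 times under each alternative, except that the difference between the changes was called for 8 of 10 after quantile normalization. That fit called 3691 of all 12090 genes higher and 3898 lower. The replicate numbers did not pair the libraries: deviations of same-numbered libraries correlated at −0.132, 0.136 and −0.0758 in PLC/PRF5 and 0.0317, 0.0302 and 0.467 in MHCC97H, and not every library correlated best with its own number. With the replicate block 8, 7, 10 and 5 of the 10 genes were called in the 4 tests, and no call changed. Over all genes the block called 2167 higher and 1086 lower of 11671 with EGR1, and 4133 and 3854 of 11577 in the labelled knockout comparison. It called 4519 and 4730 of 12046 for parental against vector cells, and 4093 and 3669 of 12090 for the difference. The cause of the following turns of sign was not tested. With the GC correction, with or without the replicate block, AKR1C3 was −0.057 in PLC/PRF5 cells. In the libraries labelled knockout GCLM was then 0.19, TXNRD1 0.28, SRXN1 −0.043 and AKR1C1 0.42, and the difference was 0.39 for HMOX1, −0.050 for AKR1C1 and −0.50 for AKR1C2. Scaled to the same total, NQO1 was −0.046 in the libraries labelled knockout, and the difference was 0.11 for NQO1 and 0.080 for AKR1B10. After quantile normalization NQO1 was −0.10 there, and the difference was 0.34 for NQO1, 0.18 for HMOX1 and 0.14 for AKR1C3. With a pseudocount of 0.1 the AKR1B10 difference was 0.15. Leaving out 1 library at a time gave −0.091 to 0.0068 for TXNRD1 and −0.095 to 0.010 for AKR1C1 in the libraries labelled knockout, and differences of −0.057 to 0.034 for NQO1 and −0.097 to 0.0026 for AKR1B10. None of these 4 values passed the threshold in any such fit. Scaling to the same total moved the median change of all genes in MHCC97H from 0.02 to −0.11 and the share of called genes that were higher from 52.5% to 41.5%.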

Other observations

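AKR1B1, AKR1B15 and PTGR1 were higher in parental MHCC97H than in vector PLC/PRF5 cells, as AKR1B10 was, and were singled out after their values were seen. Of the 6 other aldo-keto reductases tested between the lines, 4 were called higher in parental cells and 2 lower, against 38.8% and 40.9% of all genes. AKR1A1 was lower there, with means of 44.4 FPKM in vector and 21.1 in parental cells. AKR7A2 was lower too, with means of 22.6 and 10.6. AKR1B1, an aldose reductase that turns glucose into sorbitol, was 4.38, 5.07 and 4.79 FPKM in vector PLC/PRF5 libraries and 1038, 1057 and 1169 in parental MHCC97H libraries. AKR1B15, whose coding sequence shares 100-base stretches with AKR1B10, was at most 0.209 FPKM in vector libraries and 98.1, 109.7 and 127 in parental libraries. Reads from these stretches could have been split between copies, and whether the AKR1B15 level is independent of AKR1B10 was not tested. PTGR1, which reduces prostaglandins and reactive alkenals, was listed at 0 in all 3 vector libraries and was 370, 376 and 380 FPKM in parental libraries. With EGR1 overexpression AKR1B1 had a mean of 4.66 ± 0.359 FPKM (SD, n = 3) and a change of −0.02 (limma adjusted p = 0.883).

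ALB, FGB and TF, secreted proteins of hepatocytes, were the hepatocyte markers called in both EGR1 comparisons. ALB changed by 0.79 with EGR1 overexpression and by 3.11 in the libraries labelled knockout, where it was 14.1 to 16.5 FPKM, and FGB by 0.45 and 2.35. TF fell by 0.46 with EGR1 and rose by 0.72 in the libraries labelled knockout, with values of −0.87 and 1.31 after the GC correction.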
